A study of Homo sapiens with 12 samples.

Results

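The mitochondrial ribosomal protein genes, named MRPL for the large and MRPS for the small subunit, were followed in RNA co-precipitated with Argonaute 2 (AGO2) from K562 cells with and without added miR-143. Members were all rows of the 4 expression tables in which one of the gene names was MRPL or MRPS followed by a number and, in some, a letter from A to C. Of 61782 rows, 85 were found, and they hold 77 different names, 48 MRPL and 29 MRPS. In 13 of the 85 rows the member shares its row with an overlapping gene, and the value of such a joined row cannot be given to 1 gene. A further 8 rows, all of them additional entries of MRPS18B, MRPL45 or MRPS36, were at 0 in every group, so that 77 rows carried values and 65 of these were above 0 in all groups.

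K562 is a human erythroleukemia cell line. The cells, which according to the methods also carry C/EBPα-ER, had been infected with lentiviral particles of pLV-miR-143, which adds miR-143, or of pLV-control, and both populations were kept under puromycin. From each, RNA was precipitated with anti-AGO2 antibody (AGO) or unspecific IgG, which gives the 4 groups control_IgG, control_AGO, miR143_IgG and miR143_AGO. The labels name 12 samples, 3 per group, but each table holds the authors' average FPKM of its group (fragments per kilobase of transcript, scaled to library size). Each gene therefore has 1 value per group, no difference below has a replicate check, and no test could be made. Both populations derive from 1 cell line and were selected with the antibiotic, and miR-143 was added through the vector.

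Mitochondrial ribosomes translate the few respiratory chain proteins that are encoded by mitochondrial DNA. Their RNA comes from the mitochondrial genome, whereas all of their proteins are encoded in the nucleus, translated by cytosolic ribosomes and imported. AGO2 is the protein that carries a microRNA to the messenger RNAs it recognizes, mostly through pairing of the seed, the bases near the 5′ end of the microRNA, with a site in the 3′ UTR. An mRNA held by AGO2 is expected to be recovered in the AGO precipitate at a higher level than in the IgG precipitate.

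The added microRNA and the member with its strongest type of site are shown first, because the search for sites starts from the seed. The mature strand from RefSeq (GRCh38.p14, chr5:149428978-149428998, plus strand) has 21 bases, and the capitals mark its seed from base 2 to base 8.
hsa-miR-143-3p: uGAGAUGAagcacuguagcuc
Sites were searched in GENCODE release 29 (GRCh38) on the strand of the transcript as TCATCTCA, the 8mer, and as its shorter forms CATCTCA (7mer-A1) and TCATCTC (7mer-m8), both counted only outside an 8mer. MRPL41 was the only member with an 8mer, at chr9:137552522-137552529 on the plus strand in a 3′ UTR of 60 bases. The capitals mark the site.
MRPL41: ggggcggcctgcccTCATCTCAtt
For MRPS23, which held 4 sites, and for MRPL52, 1 of the 7mer-m8 sites of each is shown in the same way, at chr17:57838795-57838801 on the minus strand and at chr14:22834497-22834503 on the plus strand.
MRPS23: ctttgtgtatgctcTCATCTCtc
MRPL52: ttggcttagtactcTCATCTCtg
Some other members held only the form CATCTCA, for which MRPS21 (chr1:150308830-150308836, plus strand) and MRPS26 (chr20:3048104-3048110, plus strand) stand as examples.
MRPS21: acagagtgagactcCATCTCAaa
MRPS26: cctagagtggtttcCATCTCAca
A match of these letters describes the sequence and does not show that miR-143 binds there.

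Depth and composition differed between the groups. The lowest FPKM values above 0, multiplied by transcript length, form an edge that falls as depth rises. This edge relative to miR143_AGO was 12.9 in control_IgG, 1.64 in miR143_IgG and 1.09 in control_AGO, so that a gene at 0 or near it in control_IgG may lie below what that group could show. The mitochondrial ribosomal RNAs were listed at 141972 (MT-RNR1) and 178102 (MT-RNR2) FPKM in control_IgG and at 5543 and 9670 in control_AGO, and a similar gap separated miR143_IgG from miR143_AGO. Since FPKM is scaled to the whole library, such RNAs can lower every other value of a group, and their part in the ratios below was not tested apart from the scaling alternatives given beside them. The erythroid transcription factors GATA1 (52.0 to 73.2 FPKM) and KLF1 (41.9 to 289 FPKM) were present in all groups. Among markers of other cell types, CD3E of T cells, MS4A1 of B cells, ALB of liver and KRT5 of epithelium were at 0 in all groups, and COL1A1 of fibroblasts did not rise above 0.0500 FPKM.

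Members were recovered at moderate levels. All 4 groups are precipitates, so that levels in the cells themselves were not measured. Over the 77 rows with values, the median level was 24.1 FPKM in IgG and 9.21 in AGO of control cells, and 24.4 in IgG and 11.3 in AGO of miR-143 cells. The number of these rows at 0 was 10, 6, 1 and 4 in the same order. The median cytosolic ribosomal protein row stood at 785, 205, 737 and 201 FPKM (83 rows) and the median nuclear-encoded respiratory chain row at 76.1, 21.9, 63.9 and 26.8 (81 rows), so that both families lay above the mitochondrial ribosomal proteins in all 4 groups.

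MRPS24, a small subunit protein that shares its row with URGCP, and MRPL20, a large subunit protein with a bacterial counterpart, led the family. The MRPS24 row was listed at 201 FPKM in control_IgG and 437 in control_AGO, and in miR-143 cells at 241 in IgG and 417 in AGO. MRPL20 was listed at 163, 378, 92.9 and 594 FPKM in the same order. Both were higher in each AGO precipitate than in the IgG precipitate of the same cells, the opposite of the family's medians. The joined row of MRPL38, MRPL52 and MRPL2 followed, with levels between 27.9 and 151 FPKM. At the low end stood MRPL13, MRPS9, MRPL1, MRPL23 and the joined row of MRPS28. MRPL1 was listed at 3.89 FPKM in miR143_AGO and at 0 elsewhere, and MRPL13 at 1.44 FPKM in miR143_IgG and at 0 elsewhere.

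**Figure D1:**
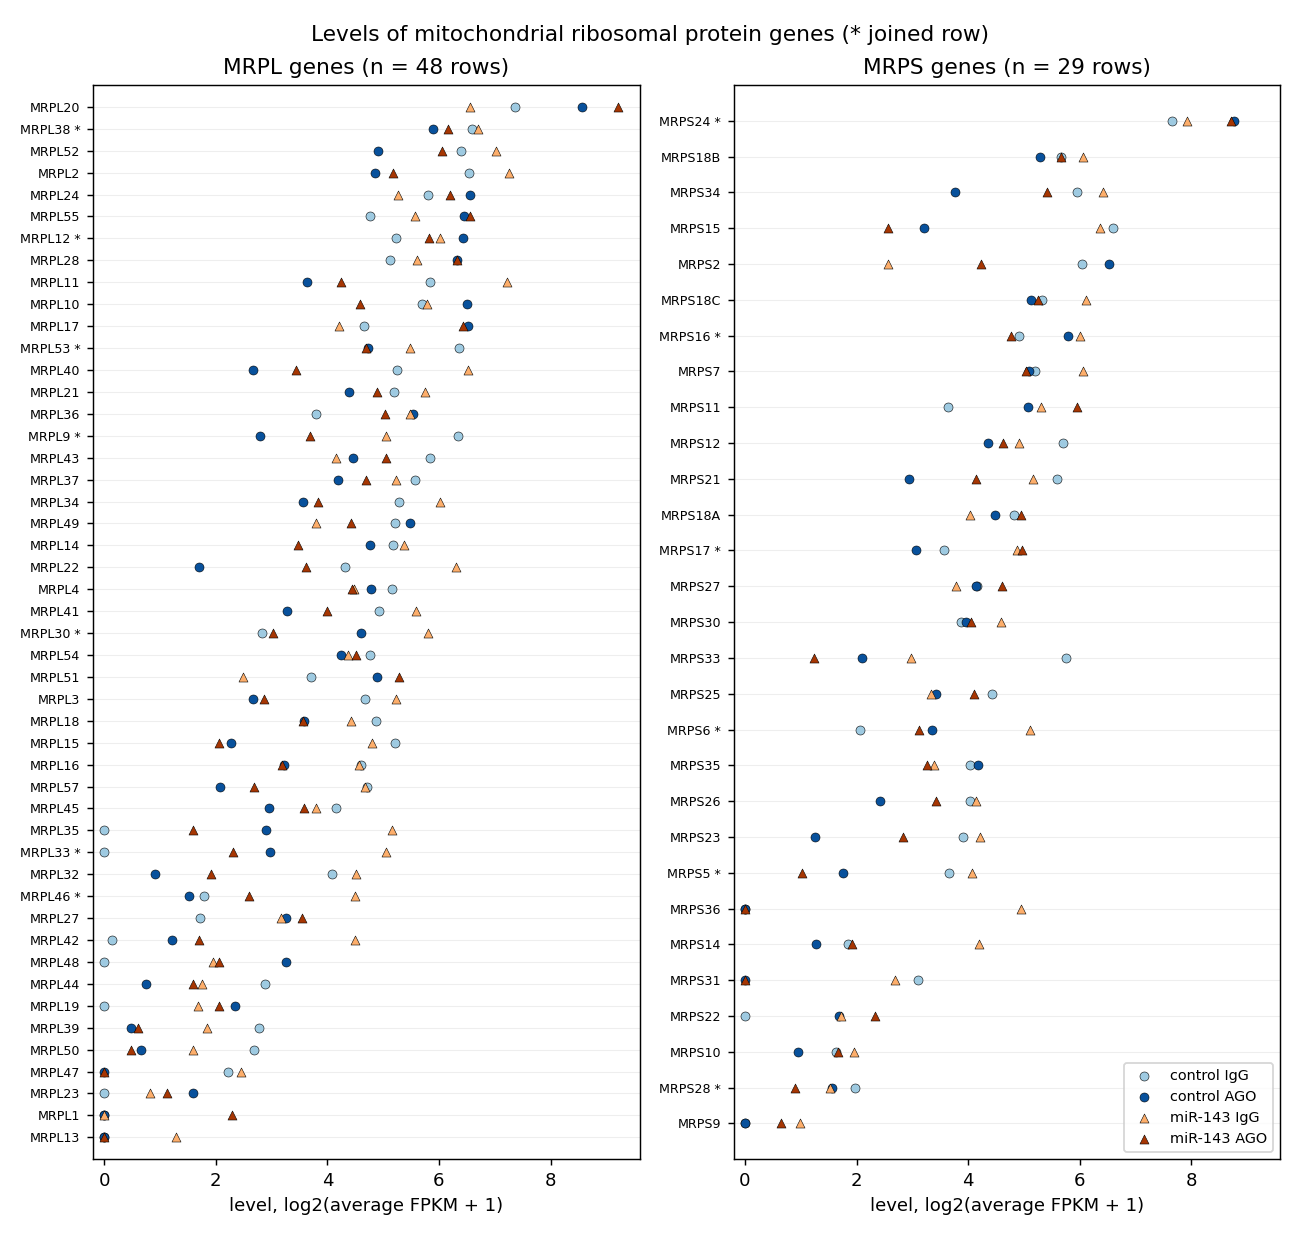
Levels of the 77 rows with values, as log2(average FPKM + 1) on the x axis, ordered by their mean level over the 4 groups, with 48 MRPL rows on the left and 29 MRPS rows on the right. Circles are control cells, triangles are miR-143 cells, light marks are IgG and dark marks are AGO; MRPS24 and MRPL20 stand at the top with dark marks to the right of light ones, whereas in most rows the dark marks lie to the left.

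To see which members were recovered with AGO2, the AGO precipitate was compared with the IgG precipitate in each cell population. Ratios are log2 of (FPKM + 1) over (FPKM + 1), over rows that reached 1 FPKM in one group of the pair or in both. In control cells, 73 members were compared, 26 were higher in AGO and 47 lower, and their median log2 ratio was -0.53, compared with -0.19 over all 9919 rows. A total of 19 members were at least 2-fold higher and 32 at least 2-fold lower, that is 26.0% and 43.8% of the members, where 34.5% and 36.2% of all rows passed the same limits. None was 10-fold higher, and 3 were 10-fold lower (MRPS15, MRPS33 and the joined row of MRPL9), compared with 4.38% and 4.98% of all rows. These counts depended on the settings, since 6 higher and 7 lower passed with a pseudocount of 0.1, 7 and 8 with 0.01, and 1 higher and at most 1 lower under the scalings given below. In miR-143 cells, 22 of 76 members were higher and 54 lower, with a median of -0.86 against -0.22 over all 10643 rows. Here 5 members were at least 2-fold higher and 35 at least 2-fold lower (6.58% and 46.1%), compared with 26.6% and 33.5% of all rows. No member was 10-fold higher and 3 were 10-fold lower (MRPS15, MRPL35 and MRPS36, the last listed at 0 in miR143_AGO), where 1.60% and 3.67% of all rows passed, and 1 was higher and 7 lower with either smaller pseudocount. Without the rows that held a 0, the medians were -0.69 in control and -0.80 in miR-143 cells, and those of all rows -0.65 and -0.26. With rows of 1 FPKM or more in both groups, 12 of 59 members were at least 2-fold higher in control cells and 26 lower. The shares of all rows were then 18.7% and 37.8%, so that the members were not fewer among the higher rows. In miR-143 cells the counts were 4 and 29 of 67 members, compared with 18.5% and 29.7% of all rows.

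The sign of both family medians was the same under 3 other scalings, but their size was not. Setting the groups to the same median, the same upper quartile or the same sum of coding rows moved the median of all rows by 0.28 to 0.44 in control cells and by 0.19 to 0.41 in miR-143 cells. The split of members past 2-fold then went from 19 higher and 32 lower to 22 and 29, 23 and 24, and 23 and 24 in control cells, and from 5 and 35 to 11 and 31, 15 and 25, and 15 and 25 in miR-143 cells. The shares over all rows moved as well, to 37.4% higher and 31.8% lower, 39.5% and 29.1%, and 39.5% and 28.9% in control cells, and to 29.7% and 29.9%, 33.3% and 26.1%, and 33.8% and 25.8% in miR-143 cells. Relative to the median of all rows, the members stood at -0.35 in control cells as deposited and at -0.31 to -0.30 under the scalings. This distance was 0.00 when only rows with a mean of 5 FPKM or more were used and -0.05 with rows of 1 FPKM or more in both groups, so that in control cells the family lay near the other rows of its level. In miR-143 cells the distance was -0.63 as deposited and -0.60 to -0.56 under the scalings. It was -0.35 with a mean of 5 FPKM or more and -0.54 with rows of 1 FPKM or more in both groups.

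The medians of both related families stood lower than that of the mitochondrial ribosomal proteins. The median log2 ratio of AGO over IgG was -2.07 in control and -2.11 in miR-143 cells for the proteins of the cytosolic ribosome, with 64 of 81 and 68 of 83 rows at least 2-fold lower. For the nuclear-encoded respiratory chain subunits it was -1.62 and -1.57, with 45 of 79 and 54 of 80 rows at least 2-fold lower. Under the 3 scalings, which were applied to these families after seeing the data, the cytosolic medians were -1.74 to -1.54 and -1.89 to -1.61, and those of the respiratory chain -1.30 to -1.10 and -1.35 to -1.07. With 1 average per group, whether the 3 families differ could not be tested.

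**Figure D2:**
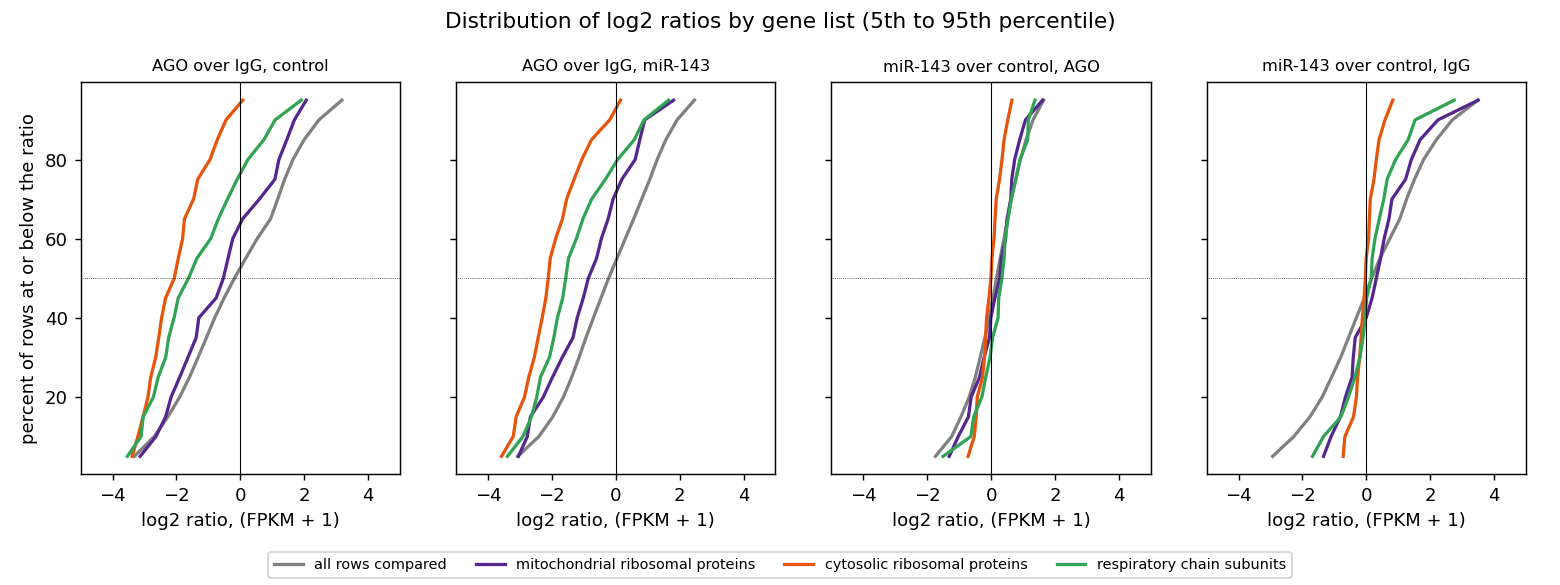
Distribution of the log2 ratios of (FPKM + 1), on the x axis, as the percent of rows at or below a ratio, on the y axis, from the 5th to the 95th percentile, for 4 comparisons as deposited. In both panels of AGO over IgG the members (purple) have medians (-0.53 and -0.86) between those of all rows (grey, -0.19 and -0.22) and the respiratory chain (green, -1.62 and -1.57), the cytosolic ribosomal proteins (orange) have the lowest, and lines cross at the low end; in the panels of miR-143 over control the lines cross near 0.

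The 2 cell populations share no library, so that each gives its own reading of AGO over IgG. Of 73 members compared in both, 15 were higher in both, 41 lower in both and 17 opposite, which makes 76.7% of the same sign, compared with 65.4% of 8648 rows. Only 3 members, MRPL17, MRPL20 and MRPL51, were at least 2-fold higher in both (4.11%, compared with 15.0% of rows), whereas 22 were at least 2-fold lower in both (30.1%, compared with 16.4% of rows). These shares include rows listed at 0 in a group, such as control_IgG, and were not recomputed without them. With the groups scaled to the same median, 6 members passed 2-fold higher in both and 20 lower, compared with 17.7% and 13.7% of all rows. MRPL24, MRPL55 and the joined row of MRPS24 were the added ones. With the groups scaled to the same upper quartile or coding sum, 9 members passed 2-fold higher in both and 15 passed 2-fold lower in both. The shares of all rows were then 20.5% and 20.8% higher and 11.3% and 11.1% lower. MRPL28, MRPS11 and MRPS2 were added under these scalings. Across members, Spearman's rho between the populations was 0.50 (Pearson's r 0.45, n = 73), and across all rows it was 0.41 (r 0.42). The rows of 1 group share their libraries and their depth, and genes are not replicates.

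The 3 genes at least 2-fold higher in both as deposited encode proteins of the large subunit. MRPL17 (GRCh38, chr11:6680782-6683401), a protein at the exit tunnel, was listed at 24.1 FPKM in control_IgG and 91.0 in control_AGO, and at 17.4 in miR143_IgG and 85.5 in miR143_AGO. The log2 ratios were 1.87 and 2.23. MRPL20 (chr1:1401908-1407313), with the values given above, had log2 ratios of 1.21 and 2.66. MRPL51 (chr12:6491886-6493841) was listed at 12.1, 28.7, 4.60 and 37.9 FPKM in that same order (IgG then AGO, control then miR-143 cells), with log2 ratios of 1.18 and 2.79. For each of these genes both AGO values were above both IgG values, and the sign was the same in all 3 scalings. On the annotation, MRPL51 overlaps NCAPD2 on the other strand and MRPL20 overlaps a 7SL pseudogene on its own strand, and reads of overlapping genes may not be told apart.

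MRPL55 and MRPS11 were at least 2-fold higher in AGO in control cells and less so in miR-143 cells. MRPL55, a large subunit protein, was listed at 26.1, 86.5, 46.7 and 93.4 FPKM in the same order, with log2 ratios of 1.69 and 0.99. MRPS11, a small subunit protein with a bacterial counterpart, was listed at 11.5, 32.7, 38.5 and 61.3 FPKM, with log2 ratios of 1.43 and 0.66. The IgG value of MRPS11 in miR-143 cells exceeded the AGO value in control cells, so that its groups overlapped. MRPL27 (2.29, 8.62, 8.03 and 10.7 FPKM) and MRPL36 (13.0, 45.4, 43.7 and 31.7 FPKM) were, of the rows of 1 name with at least 1 FPKM in both groups, among the 5 highest in control cells only. For MRPL36 the ratio in miR-143 cells was -0.45, and it was 0.01 to 0.04 when scaled to the upper quartile or the coding sum.

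At the other end, MRPS15 was low in both AGO precipitates. MRPS15 (chr1:36455718-36464437), a small subunit protein with a bacterial counterpart, was listed at 95.9 FPKM in IgG and 8.30 in AGO of control cells, and at 81.4 and 4.88 in those of miR-143 cells. Ranked among the 77 rows, it stood at place 3 in control_IgG and at place 54 in miR143_AGO. MRPS15 was the only member past 10-fold lower in both populations, by 11.6-fold and 16.7-fold in plain FPKM, although no member passed in control cells with the upper quartile or coding sum scaling. MRPL40, a protein of the central protuberance, was listed at 37.1, 5.37, 91.1 and 9.87 FPKM (log2 ratios -2.58 and -3.08). MRPL11, a stalk protein, was listed at 56.3, 11.5, 148 and 17.9 FPKM (-2.20 and -2.98). For MRPS15, MRPL40 and MRPL11, both AGO values were below both IgG values.

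Other members 2-fold lower in both populations had less equal ratios. MRPS33, MRPS23 and MRPS21 were among the 5 lowest rows of 1 name with at least 1 FPKM in both groups of control cells, with log2 ratios of -3.66, -2.66 and -2.65, and reached -1.74, -1.38 and -1.04 in miR-143 cells. MRPL15, a large subunit protein with a bacterial counterpart, had -2.94 and -2.76. The joined row of MRPL9 went from 80.4 to 5.91 FPKM in control cells and from 32.0 to 11.9 in miR-143 cells. MRPL47 and MRPS31 were listed at 0 in both AGO groups and at 3.67 to 7.64 FPKM in the IgG groups.

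**Figure D3:**
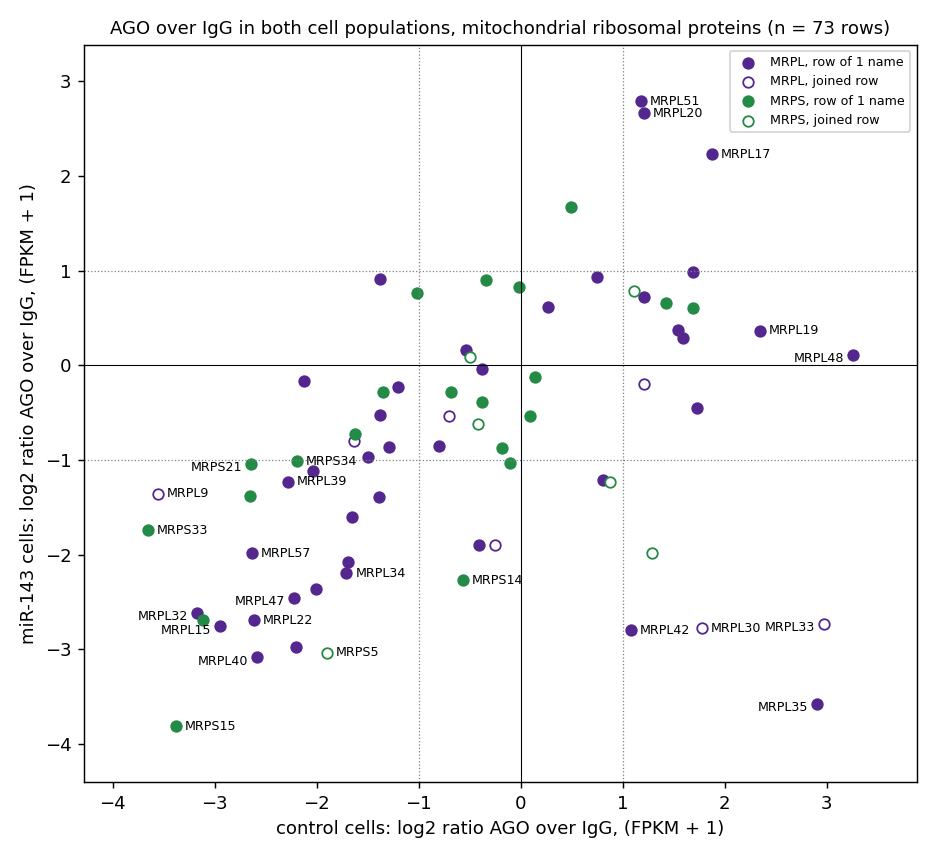
Log2 ratio of AGO over IgG, from (FPKM + 1), in control cells (x axis) and miR-143 cells (y axis) for 73 members; open circles are joined rows and dotted lines mark 2-fold. MRPL17, MRPL20 and MRPL51 lie alone above 2-fold in both, 22 members lie below 2-fold in both, and MRPL30, MRPL33, MRPL35, MRPL42 and the joined row of MRPS6 (an unlabelled open circle) at the lower right changed side by 2-fold or more each way.

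In 5 members the populations disagreed by at least 2-fold in each direction, or 6.85% compared with 10.2% of all rows. MRPL35, a large subunit protein with a bacterial counterpart, was listed at 0 in control_IgG and 6.49 FPKM in control_AGO, and at 34.7 in IgG and 2.00 in AGO of miR-143 cells. The MRPL33 row, joined with BRE, was listed at 0, 6.85, 32.0 and 3.98 FPKM. MRPL42 was listed at 0.104, 1.34, 21.6 and 2.26 FPKM. In these 3, the AGO values were low in both populations and the IgG value moved from near 0 to above 20 FPKM. The MRPL30 row, joined with LIPT1 and C2orf15, went 6.10, 23.3, 54.6 and 7.10 FPKM, and the MRPS6 row, joined with SLC5A3, 3.18, 9.21, 33.3 and 7.72. For all 5 the lowest of the 4 values was the one in control_IgG, the group with the highest edge, and the part of depth in this was not tested.

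The L7/L12 stalk is the arm of the large subunit that recruits the translation factors, and its 4 proteins did not move together. MRPL10, which anchors the stalk, was listed at 50.9 FPKM in IgG and 89.8 in AGO of control cells, and at 54.4 and 23.0 in those of miR-143 cells. The row of MRPL12, the L7/L12 protein itself, joined with SLC25A10, was listed at 36.5, 85.7, 63.6 and 55.6 FPKM. MRPL11 is given above, and the row of MRPL53, joined with CCDC142, was listed at 80.9, 25.3, 43.8 and 24.7 FPKM. In control cells MRPL10 and MRPL12 were higher in AGO (log2 ratios 0.81 and 1.21) and MRPL11 and MRPL53 lower (-2.20 and -1.64). In miR-143 cells all 4 values were below 0 as deposited, and that of MRPL12 (-0.19) was above 0 in all 3 scalings.

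Mammals have 3 forms of the S18 protein. MRPS18A, which sits in the large subunit, was listed at 27.4, 21.5, 15.4 and 29.7 FPKM, again IgG then AGO, first in control and then in miR-143 cells. MRPS18B was listed at 49.5, 37.9, 65.3 and 49.8 FPKM, and MRPS18C at 38.8, 34.1, 68.4 and 37.0. None of the 3 passed 2-fold in any comparison of AGO with IgG, and their ratios in control cells (-0.18 to -0.38) changed sign when scaled to the upper quartile or the coding sum. MRPS18A was the only one with a higher AGO than IgG value in miR-143 cells, with a log2 ratio of 0.91.

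Other divisions of the ribosome gave medians on either side of the family's. The MRPL rows had medians of AGO over IgG of -0.75 in control and -0.91 in miR-143 cells (46 and 48 rows). Those of the MRPS rows were -0.41 and -0.67 (27 and 28 rows). The MRPS rows include MRPS18A and also MRPS30, which is listed here with the central protuberance of the large subunit. In 12 central protuberance proteins the medians were 0.18 and -0.70, and in 6 exit tunnel proteins -0.22 and 0.07. The control medians of these 2 parts rested on rows that held a 0. Without such rows they were -0.25 (9 rows) and -1.20 (5 rows). Members numbered up to MRPL36 and MRPS21, nearly all of which have a bacterial counterpart, had medians of -0.38 in control (41 rows) and -1.03 in miR-143 cells (43 rows). Those with higher numbers, most of them specific to mitochondria with exceptions such as MRPS24 and MRPL47, had -1.29 (32 rows) and -0.62 (33 rows), so that the order of the 2 classes was not the same in both populations.

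Transcript features followed the ratios weakly. Across members in rows of 1 name above the limit in both groups, Spearman's rho of the log2 ratio of AGO over IgG with transcript length was -0.08 in both populations (n = 47 and 55), with 3′ UTR length -0.05 and -0.08, and with GC content 0.12 and 0.23. Across 4381 and 5124 coding rows of 1 name the values were 0.18 and 0.11, 0.13 and 0.05, and 0.22 and 0.23. These describe the rows, which share their libraries. Members had shorter transcripts than the coding rows of 1 name, which include them, with medians of 1455 bases compared with 2930 in the control comparison.

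To see whether added miR-143 changed the members in the AGO precipitate, miR143_AGO was compared with control_AGO. Of 70 members, 41 were higher and 29 lower, and the median log2 ratio was 0.27, compared with 0.17 over 9798 rows. A total of 10 members were at least 2-fold higher (14.3%) and 8 at least 2-fold lower (11.4%), compared with 17.7% and 14.1% of all rows, and with the groups scaled to the same median the split was 6 and 9, compared with 14.6% and 16.5% of all rows. None passed 10-fold in either direction, where 0.286% and 0.745% of all rows did. With a pseudocount of 0.1 or 0.01, 1 member was 10-fold higher and 0 lower. The medians were -0.00 for the cytosolic ribosomal proteins (82 rows) and 0.34 for the respiratory chain (79 rows).

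Among rows of 1 name with at least 1 FPKM in both groups, the highest ratios were those of MRPL22, MRPS34, MRPS23, MRPS21 and MRPL52, and MRPL1, listed at 0 in control_AGO, had a higher one (2.29). MRPL22 (chr5:154941070-154969411), at the exit tunnel, was listed at 2.24 FPKM in control_AGO and 11.3 in miR143_AGO, and also went from 18.9 to 78.5 in the IgG groups. MRPS34 went from 12.6 to 41.6 FPKM in AGO and from 61.2 to 84.9 in IgG. MRPS23 went from 1.38 to 6.09 in AGO and from 14.0 to 17.5 in IgG. MRPS21 went from 6.68 to 16.5 in AGO and from 47.1 to 35.0 in IgG. For MRPL22 the rise was of the same size in both precipitates (log2 ratios 1.92 and 2.00), for MRPS34 and MRPS23 it was larger in AGO, and MRPS21 moved in opposite directions. MRPL52 had log2 ratios of 1.15 in AGO and 0.62 in IgG, and the MRPS17 row, joined with GBAS and ZNF713, 1.90 and 1.31.

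MRPS2, MRPL10, MRPL35, MRPL14 and MRPL48 had the lowest ratios in rows of 1 name under the same limit. MRPS2 (chr9:135499984-135504673), a small subunit protein with a bacterial counterpart, was listed at 91.6 FPKM in control_AGO and 17.8 in miR143_AGO, and at 64.8 in control_IgG and 4.88 in miR143_IgG. It fell in both precipitates, by 5.16-fold in AGO and 13.3-fold in IgG. MRPL10 (chr17:47823272-47831534) fell by 3.90-fold in AGO and went from 50.9 to 54.4 FPKM in IgG. MRPL14 likewise went from 26.3 to 10.1 FPKM in AGO and from 35.1 to 40.2 in IgG, and MRPL48 from 8.56 to 3.19 in AGO, being listed at 0 in control_IgG and 2.87 in miR143_IgG.

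The IgG precipitates of the 2 populations differed more than the AGO precipitates. Between miR143_IgG and control_IgG, 44 of 74 members were higher and 30 lower, with a median of 0.31 compared with 0.17 over 10172 rows. At least 2-fold higher were 20 members (27.0%) and lower 9 (12.2%), compared with 36.2% and 26.8% of all rows. Without rows that held a 0, 13 of 67 members were higher and 9 lower, compared with 9 and 8 of 69 between the AGO groups. The group control_IgG had the highest edge, and the part of depth in this difference was not tested. Past 10-fold were 4 higher and 1 lower, where 5.71% and 3.16% of all rows passed. The 4 were MRPL42, MRPL35, MRPS36 and the MRPL33 row, of which the last 3 were listed at 0 in control_IgG, and the 1 was MRPS2. MRPS36, first named as a ribosomal protein and also known as a subunit of the 2-oxoglutarate dehydrogenase complex, was listed at 29.9 FPKM in miR143_IgG and at 0 in the other 3 groups. MRPL43, MRPL49, MRPL51 and MRPS33 were the other lowest rows of 1 name under the same limit, with log2 ratios of -1.68, -1.41, -1.22 and -2.78, and MRPS14 (2.60 to 17.3 FPKM) was the highest row of 1 name with at least 1 FPKM in both groups.

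The IgG-corrected ratio, AGO over IgG in miR-143 cells relative to AGO over IgG in control cells, was centred near 0. Its median over 76 members was -0.03, compared with -0.09 over 11914 rows, and under the 3 scalings it was 0.03, -0.13 and -0.03, compared with -0.06, -0.15 and -0.07. At least 2-fold higher were 15 members (19.7%) and lower 20 (26.3%), compared with 29.0% and 33.5% of all rows. With a pseudocount of 0.1 or 0.01, 1 was 10-fold higher and 11 were 10-fold lower. With the pseudocount of 1, none was 10-fold higher and 5 were 10-fold lower, where 4.29% and 6.05% of all rows passed. The 5 were MRPL35, MRPL42, MRPS36 and the joined rows of MRPL30 and MRPL33, that is genes whose value rose from 0 to 6.10 FPKM in control_IgG to 21.6 to 54.6 FPKM in miR143_IgG while no AGO value exceeded 23.3 FPKM.

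**Figure D4:**
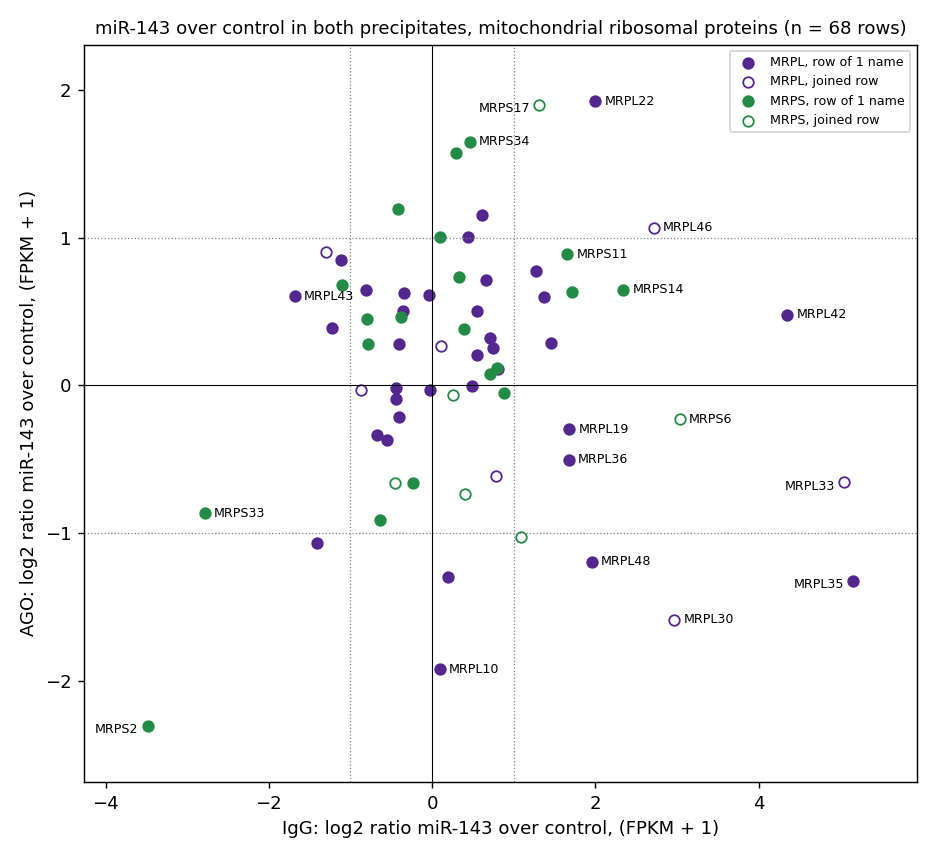
Log2 ratio of miR-143 over control cells, from (FPKM + 1), in the IgG (x axis) and AGO (y axis) precipitates for 68 members; open circles are joined rows and dotted lines mark 2-fold. MRPS2 lies at the lower left, MRPL22 at the upper right, MRPL10 falls in AGO alone, and MRPL33, MRPL35 and MRPL42 stand far to the right with AGO ratios between -1.32 and 0.48.

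Sites for the miR-143 seed were not more common in members than in other genes. In the longest annotated 3′ UTR, 12 of 77 members (15.6%) held at least 1 site, compared with 21.7% of 19539 coding genes, and an 8mer was held by MRPL41 alone, compared with 4.49% of the genes. The median longest 3′ UTR was 508 bases in members and 1060 in all coding genes. In the shortest annotated 3′ UTR, 6 members (7.79%) held a site, compared with 8.32% of the genes. The 12 were MRPL2, MRPL30, MRPL41, MRPL42, MRPL52, MRPL57, MRPS7, MRPS14, MRPS21, MRPS23, MRPS26 and MRPS33, with 17 sites in all.

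MRPL41, a large subunit protein at chr9:137551199-137552555 whose 8mer is printed above, was listed at 29.4 FPKM in IgG and 8.69 in AGO of control cells, and at 47.3 and 14.9 in those of miR-143 cells. MRPL41 was lower in AGO than in IgG in both populations and higher with miR-143 in both precipitates, with log2 ratios of 0.71 in AGO and 0.67 in IgG. The IgG-corrected value was 0.05, or -0.06 to 0.10 across the scalings.

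With sites taken from the longest 3′ UTR, the members with a site had higher medians with miR-143 in AGO and in IgG. Of the 12, 9 were higher in miR143_AGO than in control_AGO, with a median log2 ratio of 0.63, compared with 0.16 for the 58 members without a site. Among coding rows of 1 name the medians were 0.24 with and 0.14 without a site (1769 and 5407 rows). In the IgG precipitates the medians of the same members were 0.64 with and 0.24 without a site, and the IgG-corrected medians were 0.29 and -0.07 with ranges that overlapped (-4.55 to 1.91 and -6.48 to 2.29). With the shortest 3′ UTRs the picture in IgG was not the same. The 6 members with a site had medians of 0.68 in AGO and 0.03 in IgG, compared with 0.23 and 0.36 without a site, and IgG-corrected medians of 0.78, with 5 of 6 higher, and -0.14. Coding rows had 0.16 in AGO both with and without a site in the shortest 3′ UTR. In miR-143 cells none of the 12 from the longest 3′ UTR exceeded its IgG level in AGO and 10 were at least 2-fold lower, as were 25 of 64 members without a site and 27.6% of coding rows with one. In control cells 2 were higher and 8 at least 2-fold lower, as were 24 of 61 members without a site and 32.7% of coding rows with one. The corresponding medians were -1.67 and -1.64, compared with -0.53 and -0.41 in members without a site and with 0.00 and -0.08 in coding rows with one.

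The other genes of mitochondrial translation were read from lists of names. The list of mitoribosome proteins under other names, such as DAP3 and ICT1, held 7 rows. It included OXA1L, an insertase of the inner membrane rather than a ribosomal protein. In control cells, 1 of the 7 was at least 2-fold higher and 3 lower in AGO than in IgG. In miR-143 cells these counts were 0 and 4. For this and the lists that follow, the shares of all rows at least 2-fold higher and lower were the 34.5% and 36.2% of control cells and the 26.6% and 33.5% of miR-143 cells, and these lists are too short to be read against them closely. ICT1, a peptidyl-tRNA hydrolase built into the large subunit, was listed at 37.0 FPKM in IgG and 3.59 in AGO of control cells, and at 43.7 and 3.54 in those of miR-143 cells. DAP3, a small subunit protein, was listed at 57.0, 16.8, 70.4 and 22.8 FPKM in the same order. Both were lower in each AGO group, as were most members, and were picked with their values known. CHCHD1 was listed at 0, 3.86, 12.7 and 5.86 FPKM.

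Translation factors had medians of AGO over IgG of -0.87 in control and -0.50 in miR-143 cells, with 2 of 9 and 1 of 11 rows at least 2-fold higher and 4 and 4 at least 2-fold lower. MTFMT, which formylates the initiator methionine, was listed at 31.1, 4.40, 0 and 4.0 FPKM, so that its AGO values were alike and its IgG values were not. Assembly factors had 7 of 22 rows higher and 7 lower in control cells and 1 of 24 higher and 8 lower in miR-143 cells. In control cells 3 of them were 10-fold lower (13.6%, compared with 4.98% of all rows), and in miR-143 cells 1 was (4.17%, compared with 3.67%). MTERF4 passed in both populations (59.9 to 1.15 FPKM and 11.1 to 0.106 FPKM). MTERF3 and a row in which NGRN is joined with 6 other names passed only in control cells. METTL15 was listed at 9.24 FPKM in miR143_IgG and near 0 elsewhere, and ERAL1 went 11.4, 74.2, 62.6 and 21.0 FPKM.

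Of 17 rows of mitochondrial aminoacyl-tRNA synthetases, 2 were 10-fold higher in AGO of control cells with the pseudocount of 1 (11.8%, compared with 4.38% of all rows). EARS2 was listed at 5.01, 59.2, 12.5 and 39.8 FPKM and CARS2 at 0.820, 22.1, 0.654 and 12.5 FPKM, and both were past 10-fold in control cells and higher in AGO in both populations. Over the list, 4 rows were at least 2-fold higher and 6 lower in control cells (23.5% and 35.3%) and 5 and 4 in miR-143 cells (29.4% and 23.5%). TARS2 (3.26, 22.3, 69.8 and 11.4 FPKM) and RARS2 (47.6, 12.8, 0.985 and 10.1 FPKM) moved mainly in the IgG groups.

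Summed over all 77 rows, the members made up 0.0849% of all FPKM in IgG and 0.630% in AGO of control cells, and 0.111% and 0.604% in those of miR-143 cells. Their summed FPKM was 2403, 2321, 2879 and 2487 in the same order, so that it was lower in AGO in both populations while the share was higher. The cytosolic ribosomal proteins likewise went from 3.62% to 12.4% in control cells, with sums of 102434 and 45789 FPKM. In miR-143 cells they went from 3.85% to 12.1%. As a share of the coding rows of 1 name, the members' 64 rows of 1 name made up 0.824%, 1.03%, 0.986% and 1.19% (IgG then AGO, control then miR-143 cells). MRPL20 alone took 378 of 1602 FPKM in control_AGO and 594 of 1825 in miR143_AGO. Without MRPL20, left out after seeing the data, the shares were 0.751%, 0.790%, 0.944% and 0.804%, so that the share in miR-143 cells was then lower in AGO than in IgG. The MRPS rows of 1 name made up 0.288%, 0.238%, 0.296% and 0.264% of the coding rows, lower in AGO in both populations, and the MRPL rows 0.536%, 0.796%, 0.691% and 0.928%.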

How the data were processed

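The authors sequenced RNA from 12 precipitates (3 per group) and deposited 1 table per group with the average FPKM per gene row, made with TopHat and Cufflinks on hg38 according to the labels. Versions and annotation were not given in the sources used here. The labels name rRNA removal and random priming, the paper's methods a TruSeq kit. Single values were not analysed here, fragment numbers are unknown, and all columns were used as averages.

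Ratios were computed as log2 of (FPKM + 1), for rows of 1 FPKM or more in at least 1 group, in 5 comparisons. Such ratios understate changes of low genes. Calls were folds of 2 and of 10, the latter the study's threshold. The design had foreseen limma on single values; its form for averages was used. The depth edge is the 10th lowest product of FPKM and length over genes of 1 transcript.

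All 77 names were found in GENCODE 29, which may not be the authors' annotation. Of them, 38 overlap a gene on the other strand, and use of strand was not stated. Genes were named when past 10-fold, among the 5 highest or lowest rows of 1 name (at least 1 FPKM in both groups) of a pairwise comparison or among the 5 extreme levels, in a joined row, the stalk, the S18 forms, or with an 8mer, other lists when past 10-fold; MRPL47, MRPS31, MRPL57 and others outside this rule were picked with their values known. Members and lists were chosen with earlier results of these data known. Python 3.11.15, pandas 2.3.3 and numpy 2.4.6 were used, and the functions were checked on simulated data. Some marker genes are not reported here.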

Additional observations from a re-analysis of the deposited data

Results flagged for a closer look

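Rows of mitochondrial ribosomal pseudogenes were not part of the comparisons, and of 73 such rows 6 were above 0 in some group. MRPS36P1 drew attention because it was listed at 8.02 FPKM in control_AGO and 2.26 in miR143_AGO but at 0 in both IgG groups, whereas MRPS36 itself was listed at 0 in both AGO groups and at 29.9 FPKM in miR143_IgG. How the reads of the gene and its near-identical copy were divided was not tested. In contrast, MRPS18AP1 was listed at 16.8 FPKM in control_IgG, 1.84 in miR143_IgG and 0 in both AGO groups.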

How the results depend on the processing

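No paired analysis was possible because each table holds 1 average per group without replicate numbers, and for the same reason replicates could not be left out in turn. Of 136 values recomputed under alternatives, those added later aside, 108 were within 1.5 times the count or 0.1 of the median, and 28 moved. For AGO over IgG in control cells, the median of -0.53 was -0.41 with all rows, -0.70 with a mean of 5 FPKM or more, -0.74 without joined rows, and -0.22, -0.048 and -0.042 with the groups scaled to the same median, upper quartile or coding sum. In miR-143 cells the median of -0.86 was -0.64, -0.40 and -0.37 under the 3 scalings. The median of 0.27 between the AGO groups was 0.088 with the groups scaled to the same median, and that of 0.31 between the IgG groups was 0.15 with rows of 1 FPKM or more in every group. The IgG-corrected count of 35 members past 2-fold was 23 with rows of 1 FPKM or more in every group, since 18 fewer members were compared. Sites fell from 12 to 6 members with the shortest 3′ UTR, which holds fewer bases. Otherwise the cause was not tested. Members past 10-fold rose with pseudocounts of 0.1 and 0.01, for example from 3 to 13 and 15 in AGO over IgG of control cells. The IgG-corrected median of -0.03 was 0.02 with rows of 1 FPKM or more in every group and 0.05 without joined rows. Of the signs of single members, 8 of 73 and 9 of 76 changed under a scaling in the AGO over IgG ratios of control and miR-143 cells, all of them below 2-fold. Of the alternatives added after seeing the data, leaving out MRPL20 turned the difference in the members' share of the coding rows between AGO and IgG of miR-143 cells from 0.21 to -0.14 percentage points, and that of the MRPL rows from 0.24 to -0.11.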
